A study of Mus musculus with 93 samples.

Results

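Trilinolenin, a triglyceride whose 3 acyl chains are all linolenic acid (C18:3), was compared with vehicle in the livers of mice without PPARα. The comparison takes the 5 PPARα-null arrays titled C18:3 and the 4 PPARα-null arrays titled control2, 9 of the 93 arrays of the series, and 11412 of the 11463 probesets on them (51 array control probesets were left out). Each array held the liver RNA of 1 male mouse. The labels give the knockouts as 129S4/SvJae and the wild-type (WT) mice as 129S1/SvImJ, both aged 8 to 24 weeks in the groups of the later run, so that genotype and substrain cannot be told apart. The knockouts lack the receptor in the whole body, and before the experiment all mice ate a purified run-in diet with olive oil as its fat. After 4 hours of fasting a mouse received 400 µl of 1 triglyceride by gavage, or vehicle (0.5% carboxymethyl cellulose in water), and its liver was taken 6 hours later. Since the vehicle carries no fat, C18:3 itself and a fat load of any kind cannot be told apart in the comparison with control2. The later of the study's 2 array runs, with its own controls named control2, also held C18:2 (linoleic acid, 1 double bond fewer) and C10:0 (capric acid, saturated and shorter) in 5 PPARα-null mice each, and WT mice given C18:3 (5) or vehicle (4).

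PPARα is a nuclear receptor that binds fatty acids and switches on their oxidation in the fasted liver. Polyunsaturated fatty acids are also known to lower hepatic lipogenesis, in part by lowering the transcription factor SREBP-1, the product of Srebf1, which drives the enzymes that turn acetyl-CoA into fatty acids. The comparison asks which liver genes a C18:3 load changes where PPARα is absent.

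In PPARα-null livers C18:3 lowered Srebf1 and some enzymes of fatty acid synthesis and of sugar use, and raised the cytochrome Cyp2b10, the heme oxygenase Hmox1, Socs2, Fkbp5 and some genes of fatty acid oxidation. In limma's moderated test with Benjamini-Hochberg adjustment, 1132 of 11412 probesets changed at an adjusted p under 0.05 (9.92%), 649 higher (5.69%) and 483 lower (4.23%), and 1524 (13.4%) at the study's threshold of an unadjusted p under 0.01. Counted by gene, with each gene represented by its brightest probeset, 673 of 6661 genes changed (10.1%), of which 347 rose (5.21%) and 326 fell (4.89%). Changes are differences of mean log2 signal, C18:3 minus control2. The median change was 0.62 among genes that rose and -0.58 among genes that fell, and 80 and 57 of them changed by more than 2-fold. The C18:3 and control2 arrays did not overlap for 191 of the 347 genes that rose and for 194 of the 326 that fell, where over all genes 4.43% lay wholly higher and 5.4% wholly lower. The median change over all 6661 genes was -0.02. In WT livers of the same run, C18:3 changed 364 probesets (3.19%) and 223 genes (3.35%), 144 higher (2.16%) and 79 lower (1.19%). The WT contrast was not refitted without single arrays, and these counts are no test of a difference between the genotypes.

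Some of the 9 livers stood apart, and the counts moved with them. Control2 replicate 4 had the highest summed signal of stellate cell and fibroblast markers, 4740 on the linear scale against at most 2650 in the other controls and 1820 to 2520 with C18:3, and of lymphocyte and neutrophil markers, 443 against at most 161 in the other controls and 87.4 to 126 with C18:3. That liver was also highest for Kupffer cell and macrophage markers, 3820 against at most 3350 in the other controls and 2250 to 3370 with C18:3. None of the 9 measured stellate and fibroblast markers and none of the 4 lymphocyte and neutrophil markers passed the test in either direction. The median change of the stellate and fibroblast list was -0.82 with all arrays and -0.11 without control2 replicate 4. Control2 replicate 3 had the highest signals of lipogenic enzymes, and C18:3 replicate 5 those of Cyp2b10, Hmox1 and Insig2. Without C18:3 replicate 5 the number of changed probesets fell to 376, without C18:3 replicate 2 to 646 and without control2 replicate 3 to 745, and it rose to 1358 without C18:3 replicate 1. Without control2 replicate 4 the balance turned, with 469 probesets higher and 502 lower (637 and 738 at the study's threshold). Without both C18:3 replicate 5 and control2 replicate 4 the count was 400, with 207 higher and 193 lower. The part of these livers in the results was not tested beyond leaving them out. The summed hepatocyte markers were alike, 101000 to 107000 with C18:3 and 98000 to 106000 in control2, and the macrophage markers Cd68, Marco and Timd4 were in the lowest 10% of signals on all 9 arrays. In whole liver, fewer cells of a type and less RNA per cell cannot be told apart. Of 3 Ppara probesets, 2 were lower in every PPARα-null than in every WT liver of these groups (8.44 to 9.85 against 10.21 to 11.18, and 6.85 to 7.93 against 8.57 to 9.52) and the other overlapped (9.93 to 10.78 against 10.69 to 11.61). Where the probes lie relative to the deleted part is not given in the sources used here.

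**Figure D1:**
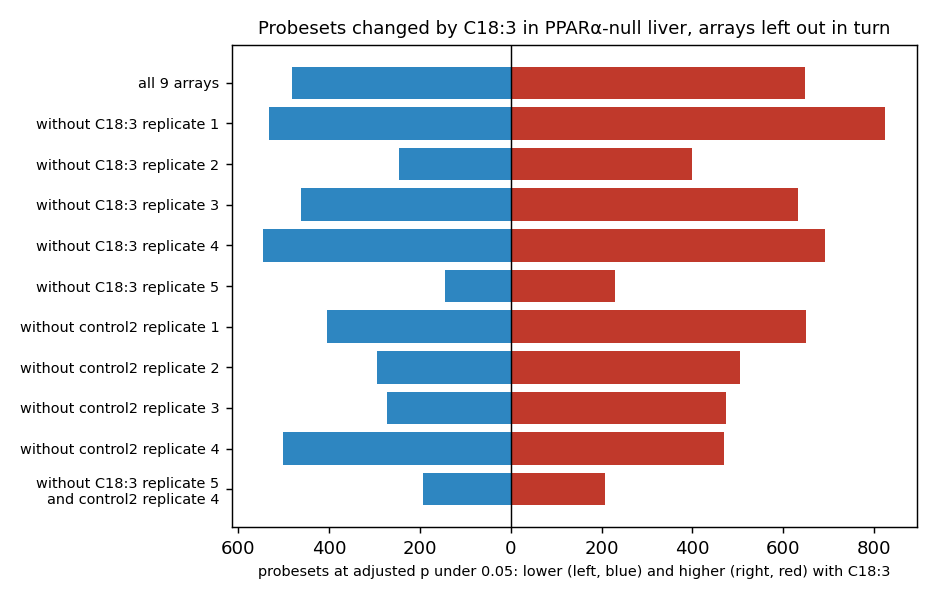
Number of probesets at an adjusted p under 0.05 for C18:3 minus control2 in PPARα-null liver (horizontal axis; higher to the right in red, lower to the left in blue) with all 9 arrays, without each array in turn, and without both C18:3 replicate 5 and control2 replicate 4 (vertical axis). The count lies between 376 without C18:3 replicate 5 and 1358 without C18:3 replicate 1, around 1132 with all arrays.

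The deepest fall was in Srebf1 itself. Its log2 signal was 5.92, 4.97, 5.65, 6.51 and 5.11 in the 5 C18:3 livers and 8.57, 8.74, 8.87 and 7.46 in the 4 controls. Every C18:3 liver lay below every control, and the change was -2.78 (SE 0.41, limma adjusted p = 2.01e-05), or 6.86-fold lower. Mid1ip1, whose product activates acetyl-CoA carboxylase, read 5.06, 5.08, 4.80, 5.64 and 4.10 with C18:3 and 6.81, 6.85, 7.66 and 6.38 in control2, again without overlap, and fell by 1.99 (SE 0.39, adjusted p = 0.000703). Insig2, which encodes a protein that holds the SREBP precursors in the endoplasmic reticulum, moved the other way. Its signal was 11.53, 12.28, 11.38, 10.76 and 13.21 with C18:3 and 10.83, 10.59, 10.53 and 10.44 in control2, so that only C18:3 replicate 4 came within the range of the controls. Insig2 rose by 1.23 (adjusted p = 0.0106), and this call was lost without C18:3 replicate 5 (change 0.89, adjusted p = 0.108). Of 11 measured lipogenic regulators these 3 changed, with a median change of -0.14 over the list, beside 10.1% of all genes changing.

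Some fatty acid synthesis enzymes fell. Of 16 measured enzymes 5 fell (Acaca, Acss2, Fasn, Pklr and Tkt), none rose and the median was -0.61, beside 4.89% falling and a median of -0.02 over all genes. Acaca, the acetyl-CoA carboxylase that commits acetyl-CoA to lipogenesis, read 6.98, 6.14, 6.76, 6.55 and 6.35 with C18:3 and 7.55, 7.99, 9.24 and 7.54 in control2. These groups did not overlap, and Acaca fell by 1.52 (SE 0.28, adjusted p = 0.000281), a call kept in all 9 fits without 1 array. Fasn, the fatty acid synthase, read 7.68, 7.10, 7.22, 7.25 and 7.18 with C18:3 and 8.20, 8.44, 10.54 and 8.13 in control2. Control2 replicate 3 stands far above the other controls, yet the lowest control is above the highest C18:3 liver. Fasn changed by -1.54 (SE 0.37, adjusted p = 0.00445), and by -0.97 (adjusted p = 0.0931) without control2 replicate 3. Acss2, the cytosolic acetyl-CoA synthetase, changed by -1.40 (adjusted p = 0.0204), a call lost without C18:3 replicate 5 or control2 replicate 3 (adjusted p up to 0.176, where its change was -0.92). Pklr, the liver pyruvate kinase, changed by -1.35 (adjusted p = 0.0379), a call lost without C18:3 replicates 1, 2 or 5 or control2 replicates 1, 2 or 3 (adjusted p up to 0.192). Without control2 replicate 3 only 1 of the 16 enzymes fell and the list's median was -0.34. Tkt, the transketolase of the pentose phosphate pathway, changed by -0.52 (adjusted p = 0.0467). In WT livers none of the 16 passed in either direction, with a median of -0.07, beside 3.35% of all genes changing. In a direct test of the difference between the genotypes none of the 16 passed, beside 0.886% of all genes.

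**Figure D2:**
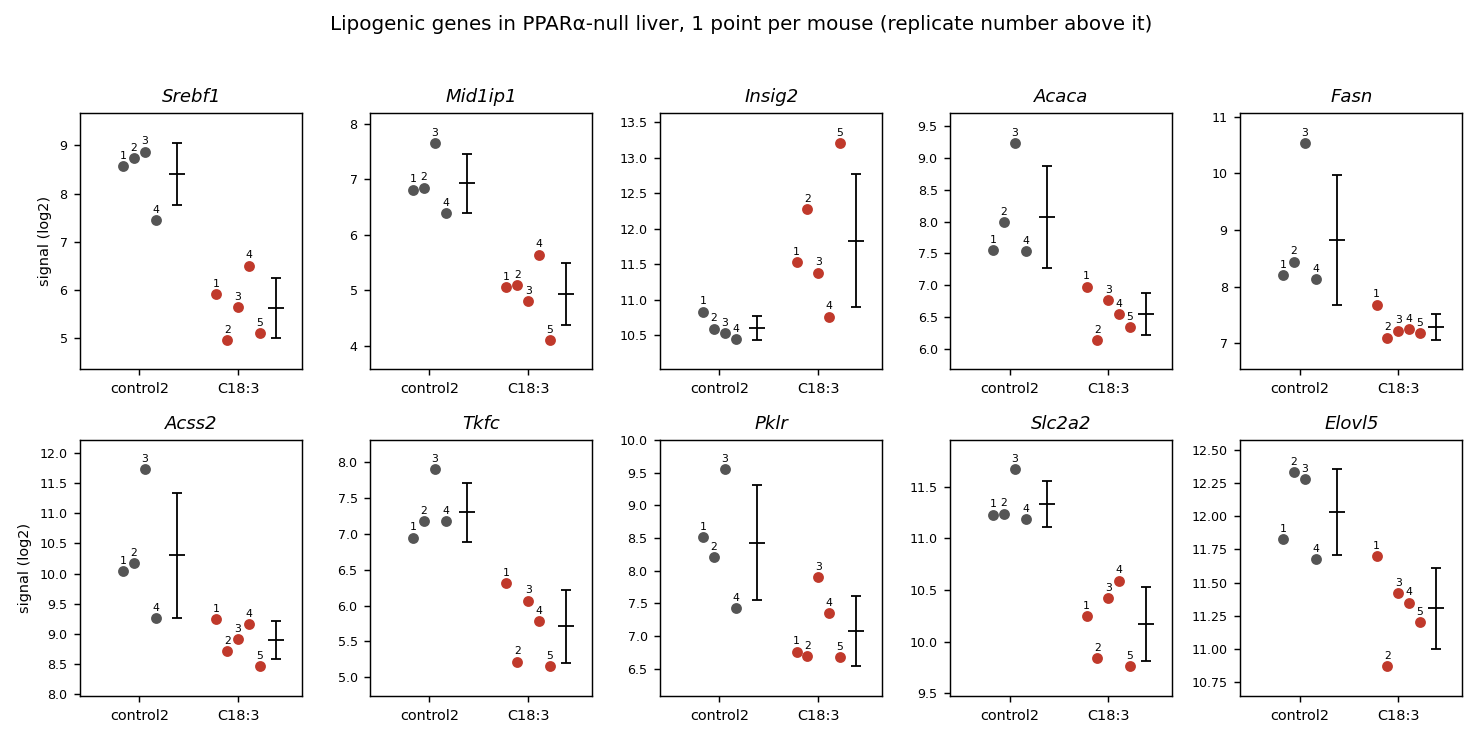
Log2 signal (vertical axis) of 10 lipogenic and sugar-use genes in PPARα-null liver for control2 (grey, 4 mice) and C18:3 (red, 5 mice); each point is 1 mouse with its replicate number, and the bar beside it is the mean with the SD. In 7 of the 10 panels the groups do not overlap (Insig2, Pklr and Elovl5 overlap), and control2 replicate 3 is the highest control for Srebf1, Mid1ip1, Acaca, Fasn, Acss2, Tkfc, Pklr and Slc2a2.

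The promoters of the changed lipogenic genes were read for letters that SREBP and its partners bind. Among the called members of the lipogenic, fatty acid synthesis, desaturase and cholesterol lists, 9 genes had 14 annotated starts in the RefSeq table (GRCm38.p6), and the 250 bases before each start were searched on both strands. The exact letters TCACNCCAC, a form of the sterol response element, were in none of the 14, against 1.05% of all 32851 promoters. Only this string was searched, so other forms of the element may be present in these windows. An E-box (CACGTG) was in 1 of 14, upstream of Elovl5, against 6.02% of all promoters. The letters CCAAT, which the factor NF-Y binds beside SREBP, were in 7 of 14, against 33.8% of all promoters. The upstream sequences of Srebf1 (chr11:60210472-60210721, minus strand), Fasn (chr11:120824548-120824797, minus strand), Acss2 (chr2:155517793-155518042, plus strand) and Elovl5 (chr9:77917115-77917364, plus strand) are shown as examples, since these genes fell and these windows hold such letters. They run 5′ to 3′ and end at the base before the start, and capitals mark CCAAT on either strand and, for Elovl5, also CACGTG. In Fasn a match on one strand overlaps a match on the other. Windows of Pklr, which also fell (chr3:89136373-89136622), and of another Srebf1 start (chr11:60222582-60222831) hold CCAAT too and are not shown. The Srebf1 window at chr11:60220628-60220877 holds none of the letters searched.
Srebf1: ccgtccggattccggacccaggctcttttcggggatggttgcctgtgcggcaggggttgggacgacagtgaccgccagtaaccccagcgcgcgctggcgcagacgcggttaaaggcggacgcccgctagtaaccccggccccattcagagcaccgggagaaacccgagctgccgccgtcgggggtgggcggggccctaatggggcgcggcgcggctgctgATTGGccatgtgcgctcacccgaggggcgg
Fasn: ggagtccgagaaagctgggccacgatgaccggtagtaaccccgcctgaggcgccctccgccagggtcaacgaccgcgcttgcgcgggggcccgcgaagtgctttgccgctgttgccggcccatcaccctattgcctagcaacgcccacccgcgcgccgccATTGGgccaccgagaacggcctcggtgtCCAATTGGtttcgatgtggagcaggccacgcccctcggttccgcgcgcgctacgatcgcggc
Acss2: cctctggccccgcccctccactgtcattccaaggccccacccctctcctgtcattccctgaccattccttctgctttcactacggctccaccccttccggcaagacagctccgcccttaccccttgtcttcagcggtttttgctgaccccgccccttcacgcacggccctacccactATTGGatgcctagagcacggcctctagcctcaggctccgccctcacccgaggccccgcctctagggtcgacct
Elovl5: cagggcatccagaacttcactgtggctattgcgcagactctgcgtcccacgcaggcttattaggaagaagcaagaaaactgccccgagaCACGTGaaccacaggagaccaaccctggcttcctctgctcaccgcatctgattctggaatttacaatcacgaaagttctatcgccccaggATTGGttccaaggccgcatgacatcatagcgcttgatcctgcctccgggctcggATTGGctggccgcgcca

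Some genes that bring sugar into the liver and through glycolysis fell with the lipogenic enzymes. Of 29 measured genes of glucose and glycogen metabolism 6 fell (Slc2a2, Tkfc, Pklr, Gpd2, Gckr and Pygl) and none rose, with a median of -0.11. Over all genes 4.89% fell. In the fits without 1 array 2 to 8 of the 29 fell, with 2 each without C18:3 replicates 2 or 5 or control2 replicate 3 and 3 each without control2 replicates 1 or 2. Slc2a2, the glucose transporter GLUT2, read 10.25, 9.84, 10.42, 10.59 and 9.76 with C18:3 and 11.23, 11.24, 11.67 and 11.19 in control2, without overlap. It fell by 1.16 (SE 0.25, adjusted p = 0.00172), or 2.24-fold. Tkfc, the triokinase of fructose use, read 6.31, 5.22, 6.07, 5.79 and 5.15 and 6.95, 7.17, 7.90 and 7.18 in the same order, also without overlap, and fell by 1.59 (SE 0.36, adjusted p = 0.00222). Both calls were kept in all 9 fits without 1 array. Gpd2, the mitochondrial glycerol-3-phosphate dehydrogenase, changed by -0.71 (adjusted p = 0.0339), a call lost without C18:3 replicates 2, 4 or 5 or control2 replicates 2 or 3 (adjusted p up to 0.146). In WT livers none of the 29 genes passed in either direction, beside 3.35% of all genes. Nor did any of the 29 pass in a direct test of the difference between the genotypes, which 0.886% of all genes passed.

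Among enzymes that lengthen and desaturate polyunsaturated fatty acids 1 of 11 fell and none rose, beside 4.89% falling over all genes. Elovl5, which elongates C18 polyunsaturated acids, read 11.70, 10.87, 11.42, 11.35 and 11.20 with C18:3 and 11.83, 12.33, 12.28 and 11.68 in control2. Only C18:3 replicate 1 came above the lowest control, and Elovl5 fell by 0.72 (SE 0.16, adjusted p = 0.00244). Cholesterol synthesis and LDL uptake genes had a median of -0.55, with 16 of 17 measured members below 0, but none passed the test in either direction, and the median ran from -0.67 to -0.14 over the fits without 1 array.

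Of 20 measured genes of glycerolipid assembly Chka, Lpin1 and Lpin2 rose and Gpam fell, beside 5.21% rising and 4.89% falling over all genes. Lpin2, a phosphatidate phosphatase, rose by 0.86 (SE 0.22, adjusted p = 0.00797), and its signal was 10.85, 10.69, 11.10, 10.15 and 11 with C18:3 and 9.44, 9.69, 9.92 and 10.53 in control2. Control2 replicate 4 came within the C18:3 range, and the call was kept in all 9 fits without 1 array. Lpin1, of the same enzyme family, rose by 1.48 (adjusted p = 0.0445), a call lost without C18:3 replicates 1, 2, 3, 4 or 5 or control2 replicates 1, 2 or 3 (adjusted p up to 0.233). Gpam, the acyltransferase of the first step, changed by -0.74 (adjusted p = 0.00325), a call lost without control2 replicate 3 (adjusted p of 0.0583). The other Gpam probeset changed by -0.44 and did not pass (adjusted p = 0.561). Chka, a choline kinase, was in the lowest 10% of signals in control2 and was at least 1.90-fold higher with C18:3 (adjusted p = 0.0288), a call lost without C18:3 replicates 2 or 5 or control2 replicates 1, 2 or 3 (adjusted p up to 0.183).

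Some targets of PPARα rose in livers without the receptor. Of 30 measured established targets 8 rose and none fell in PPARα-null livers, with a median of 0.12, beside 5.21% rising over all genes. In the fits without 1 array 3 to 9 rose. The count was 3, with 2 falling, without control2 replicate 3, 4 without C18:3 replicate 5, and 5 each without C18:3 replicate 2 or control2 replicate 2. In WT livers 18 of the 30 rose and none fell, with a median of 0.55, beside 2.16% rising over all genes. A direct test of the difference between the genotypes passed for 3 of the 30, beside 0.886% of all genes. Acot1, an acyl-CoA thioesterase, read 9.17, 9.72, 9.18, 8.62 and 10.50 in C18:3 and 8.58, 8.28, 6.95 and 8.18 in control2 PPARα-null livers. No C18:3 liver lay below the highest control, and Acot1 rose by 1.44 (SE 0.35, adjusted p = 0.00481) and by 1.09 (adjusted p = 0.0582) without control2 replicate 3. Its WT rise was 2.19 (adjusted p = 3.12e-05), and the difference between the genotypes was -0.75 (SE 0.49, adjusted p = 0.519). Hacl1, an enzyme of peroxisomal alpha-oxidation, is not among the 30 listed targets. It read 9.93, 10.66, 10.68, 10.70 and 10.88 with C18:3 and 9.88, 9.46, 9.53 and 8.96 in control2, and its lowest C18:3 value lies just above the highest control. Hacl1 rose by 1.11 (SE 0.23, adjusted p = 0.00115) in PPARα-null and by 1.27 (adjusted p = 0.000265) in WT livers, and the difference between the genotypes was -0.16 with a 95% interval from -0.82 to 0.50.

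Some carriers and enzymes of mitochondrial fatty acid oxidation rose by smaller steps. Of 23 measured genes 5 rose (Crat, Cpt1a, Slc25a20, Acadl and Cpt2) and Hadh fell, with a median of 0.02. Over all genes 5.21% rose and 4.89% fell. In WT livers 9 of the 23 rose and none fell, beside 2.16% rising over all genes. A direct test of the difference between the genotypes passed for 2 of the 23, beside 0.886% of all genes. Cpt1a, the carnitine palmitoyltransferase that admits fatty acids to mitochondria, read 11.05, 11.28, 11.30, 11.20 and 11.34 with C18:3 and 11.10, 10.56, 10.00 and 11.05 in control2. The groups overlap at their edges, since C18:3 replicate 1 is below control2 replicate 1. Cpt1a rose by 0.56 (SE 0.13, adjusted p = 0.00441), a call lost without control2 replicate 3 (adjusted p of 0.104). Other Cpt1a probesets changed by 0.48 and 0.44 and did not pass (adjusted p = 0.0508 and 0.108). Slc25a20, the carrier of acylcarnitines, rose by 0.56 (adjusted p = 0.00596), a call lost without control2 replicate 3 (adjusted p of 0.0859). Crat, which moves acetyl groups between coenzyme A and carnitine, rose by 1.01 (adjusted p = 0.017), a call lost without C18:3 replicates 2 or 5 or control2 replicate 4 (adjusted p up to 0.12). The other Crat probeset changed by 0.42 and did not pass (adjusted p = 0.29). Acadl, a long-chain acyl-CoA dehydrogenase, rose by 0.55 (adjusted p = 0.00401), a call lost without C18:3 replicate 5 (adjusted p of 0.058). Of 21 peroxisomal oxidation genes Hacl1 and Eci2 rose and none fell, beside 5.21% rising over all genes. In WT livers 8 of the 21 rose and 1 fell, beside 2.16% rising and 1.19% falling over all genes. The direct test of the difference between the genotypes passed for 2 of the 21, beside 0.886% of all genes. Eci2, an enoyl-CoA isomerase, rose by 0.60 (SE 0.12, adjusted p = 0.0009), a call kept in all 9 fits without 1 array.

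Of 16 measured genes of lipid droplets and lipolysis 1 rose and none fell, beside 5.21% rising over all genes. That gene, Plin2, which coats lipid droplets, rose by 0.80 (adjusted p = 0.0182), a call lost without C18:3 replicates 2 or 5 or control2 replicates 2 or 3 (adjusted p up to 0.132). Angptl4, an inhibitor of lipoprotein lipase, rose by 0.75 (adjusted p = 0.0202), a call lost without C18:3 replicates 2, 3 or 5 or control2 replicates 1 or 2 (adjusted p up to 0.137). Creb3l3, a membrane-bound transcription factor of the fasted liver, read 10.57, 10.58, 10.46, 10.25 and 10.54 with C18:3 and 10.21, 9.92, 9.50 and 10.07 in control2, without overlap, and rose by 0.55 (SE 0.09, adjusted p = 8.73e-05). Of 7 measured genes of ketone body synthesis and export 1 fell and none rose, beside 4.89% falling over all genes. That gene, Bdh1, the 3-hydroxybutyrate dehydrogenase, changed by -0.56 (adjusted p = 0.0137), a call lost without C18:3 replicate 5 or control2 replicate 4 (adjusted p up to 0.0782). Adh4, an alcohol dehydrogenase that also acts on omega-hydroxy fatty acids, read 8.51, 8.10, 8.48, 8.84 and 7.84 with C18:3 and 9.86, 9.53, 9.75 and 9.44 in control2. Its groups lie well apart, and it fell by 1.29 (SE 0.24, adjusted p = 0.000316).

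**Figure D3:**
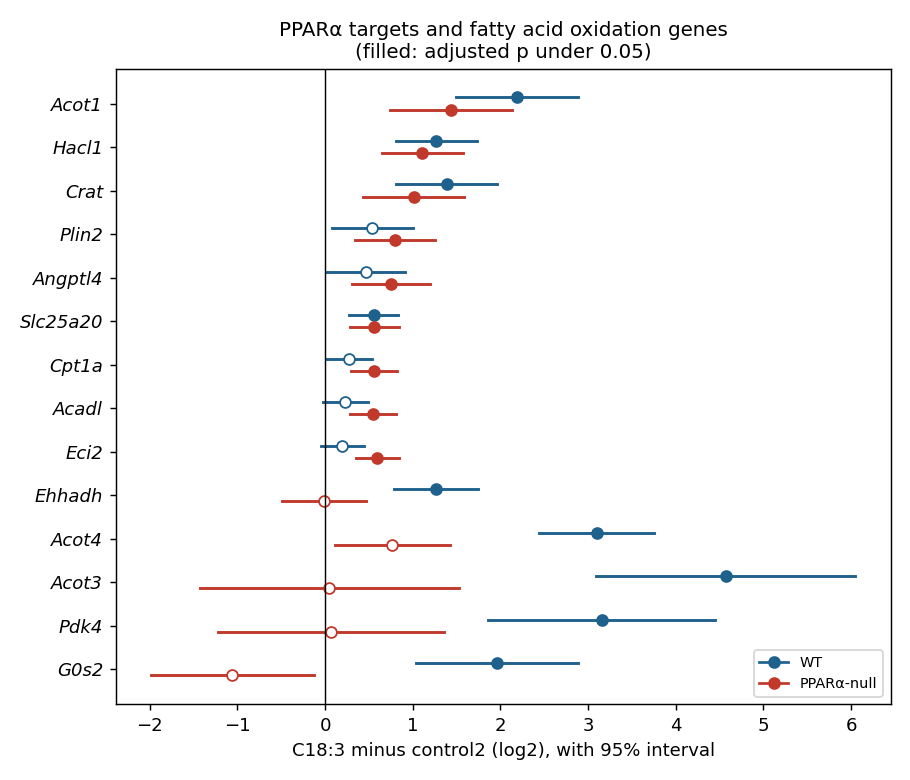
Change with C18:3 (horizontal axis, log2, C18:3 minus control2, with its 95% interval) of 14 PPARα targets and fatty acid oxidation genes (vertical axis) in WT (blue) and PPARα-null (red) liver; filled points passed an adjusted p under 0.05. Acot1, Hacl1, Crat and Slc25a20 passed in both genotypes, while Ehhadh, Acot4, Acot3, Pdk4 and G0s2 passed in WT alone.

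The effect of C18:3 differed between the genotypes for 98 probesets (0.859%) and 59 of 6661 genes (0.886%), by a test of the difference itself. The probeset count was 43 without PPARα-null C18:3 replicate 2, 54 without PPARα-null C18:3 replicate 5, 65 without PPARα-null control2 replicate 2, 53 without WT C18:3 replicate 3, 38 without WT control2 replicate 1, and 38 to 143 over all 18 such fits. The effect was lower in PPARα-null livers for 36 of the genes (0.54%), of which 20 were called in WT and 15 in PPARα-null livers, and higher for 23 (0.345%), of which 6 were called in WT and 16 in PPARα-null livers. Acot3, a peroxisomal acyl-CoA thioesterase, read 4.72, 6.06, 5.60, 5.03 and 6.68 with C18:3 and 6.18, 6.95, 4.52 and 4.64 in control2 in PPARα-null livers. In WT livers it read 10.06, 10.20, 10.94, 10.17 and 11.02 with C18:3 and 2.201, 7.59, 8.44 and 5.40 in control2, where the WT groups do not overlap and the PPARα-null groups do. The difference was -4.52 (SE 1.05, adjusted p = 0.0166), and it was not called without PPARα-null control2 replicate 2 (-4.07, adjusted p = 0.0543) or WT control2 replicate 1 (-3.29, adjusted p = 0.12). Acot4, of the same family, differed by -2.33 (SE 0.46, adjusted p = 0.00536), with a WT rise of 3.10 and a change of 0.77 (adjusted p = 0.119) in PPARα-null livers. G0s2, which inhibits the lipase that opens lipid droplets, read 8.65, 8.64, 8.56, 8.95 and 7.42 with C18:3 and 11.31, 9.46, 8.23 and 9 in control2 without PPARα. In WT livers G0s2 read 11.77, 12.24, 12.77, 11.96 and 12.37 with C18:3 and 10.11, 10.11, 10.67 and 10.15 in control2, with no overlap. Its effects differed by -3.02 (SE 0.66, adjusted p = 0.00941), a call lost without PPARα-null control2 replicate 1 (-2.42, adjusted p = 0.0513). Ehhadh, a peroxisomal oxidation enzyme and a classical target, changed by -0.01 (adjusted p = 0.987) in PPARα-null and rose by 1.26 (adjusted p = 0.0005) in WT livers. The Ehhadh difference was -1.27 (adjusted p = 0.0449) and lost its call in 17 of 29 alternatives, among them the fits without any 1 of the 5 PPARα-null C18:3 arrays. Pdk4, which blocks pyruvate oxidation, changed by 0.07 (adjusted p = 0.965) without PPARα and rose by 3.16 (adjusted p = 0.00141) in WT livers, and the difference of -3.09 did not pass (adjusted p = 0.0823). Paqr7 and Chrna2 were in the lowest 10% of signals in both PPARα-null groups, and no change is given for them there.

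Genes with a higher effect in PPARα-null livers were led by Chac1, a glutathione-degrading enzyme of the amino acid response. It read 6.73, 6.30, 6.87, 6.10 and 6.72 with C18:3 and 5.00, 5.65, 4.95 and 5.49 in control2 in PPARα-null livers, without overlap, a rise of 1.27 (adjusted p = 0.0313). In WT livers it read 5.38, 6.29, 5.57, 5.23 and 5.33 with C18:3 and 8.07, 6.76, 6.84 and 6.38 in control2, a fall of 1.45 (adjusted p = 0.0257). The effects ran in opposite directions and differed by 2.72 (SE 0.57, adjusted p = 0.00728), a call kept in all 29 alternatives, though the PPARα-null rise alone was lost without C18:3 replicates 3 or 5 or control2 replicates 1 or 3 (adjusted p up to 0.0895). Ier2, an immediate early gene, read 6.08, 6.60, 6.73, 6.44 and 6.67 with C18:3 and 6.21, 6.30, 6.41 and 6.38 in control2 without PPARα, and these groups overlap. In WT livers Ier2 fell by 1.62 (adjusted p = 3.40e-05), and the difference of 1.80 (adjusted p = 0.00716) was likewise kept in all 29 alternatives. Megf9, a membrane protein with EGF-like repeats, read 9.99, 10.10, 9.85, 9.22 and 10.42 with C18:3 and 7.81, 8.39, 8.64 and 8.51 in control2, without overlap. It rose by 1.58 (SE 0.28, adjusted p = 0.000262) in PPARα-null livers, changed by -0.12 (adjusted p = 0.934) in WT livers, and differed by 1.70 (adjusted p = 0.0176), a call lost without PPARα-null control2 replicate 1, WT C18:3 replicate 3 or WT control2 replicate 4 (adjusted p up to 0.0611). Csrnp1, another early response gene, differed by 2.01 (adjusted p = 0.0129). This call was lost in a fit of the groups compared alone (adjusted p = 0.0951) and with the later run alone (adjusted p = 0.0507). The PPARα-null rise of Csrnp1 (1.00, adjusted p = 0.0331) was lost without C18:3 replicates 4 or 5 or control2 replicates 1 or 3 (adjusted p up to 0.156). Cyp26a1 was in the lowest 10% of signals in both PPARα-null groups, so its change there is not given.

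For Srebf1, WT livers fell as well. WT Srebf1 read 8.36, 7.51, 7.98, 8.94 and 7.84 with C18:3 and 8.83, 10.05, 10.04 and 9.75 in control2, with 1 C18:3 liver above the lowest control. The fall was 1.54 (SE 0.41, adjusted p = 0.018), and the difference between the genotypes, -1.24 with a 95% interval from -2.38 to -0.09, did not pass after adjustment (adjusted p = 0.32). Acaca changed by -0.74 (adjusted p = 0.139) and Fasn by -0.48 (adjusted p = 0.643) in WT livers, and for neither did the difference between the genotypes pass.

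Beyond lipid metabolism the widest rise was that of Cyp2b10, a cytochrome that the receptor CAR switches on. It read 7.04, 10.37, 7.28, 5.29 and 11.29 with C18:3, where replicates 2 and 5 are highest, and 3.01, 2.52, 2.81 and 3.35 in control2, all in the lowest 10% of signals. Cyp2b10 was at least 10.2-fold higher with C18:3 (adjusted p = 0.000316), and its 3 probesets all rose. Nr1i2, which encodes the related receptor PXR, read 4.96, 5.42, 5.52, 5.09 and 5.15 with C18:3 and 4.27, 3.67, 3.06 and 3.33 in control2. It did not overlap between the groups and was at least 1.25-fold higher (adjusted p = 0.000373). Nr1i3, which encodes CAR itself, changed by 0.30 (adjusted p = 0.388). Of 20 measured genes of CAR, PXR and their targets Cyp2b10, Nr1i2 and Cyp3a13 rose and none fell, with a median of 0.28. Over all genes 5.21% rose. Cyp3a13 rose by 0.86 (adjusted p = 0.011), a call lost without C18:3 replicate 5 or control2 replicate 3 (adjusted p up to 0.0903).

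Heme oxygenase 1, Hmox1, which breaks down heme, read 6.23, 8.13, 6.26, 6.26 and 9.42 with C18:3 and 4.57, 4.25, 4.85 and 4.07 in control2. The 3 lower C18:3 livers are nearly level and replicates 2 and 5 stand above them, all higher than every control. Control2 was in the lowest 10% of signals, and Hmox1 was at least 5.12-fold higher (adjusted p = 0.00103). Nfe2l2, which encodes NRF2, an activator of Hmox1, moved the other way. It read 7.74, 8.00, 8.06, 8.12 and 8.33 with C18:3 and 8.85, 8.83, 8.94 and 8.59 in control2, without overlap, and fell by 0.75 (SE 0.13, adjusted p = 0.000189). Of 29 measured NRF2 targets and glutathione genes Hmox1 rose and Nfe2l2 and Mgst3 fell, with a median of -0.07. Over all genes 5.21% rose and 4.89% fell. Mgst3, a microsomal glutathione transferase, changed by -0.85 (adjusted p = 0.0214), a call lost without C18:3 replicates 1 or 5 or control2 replicates 1 or 3 (adjusted p up to 0.079).

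**Figure D4:**
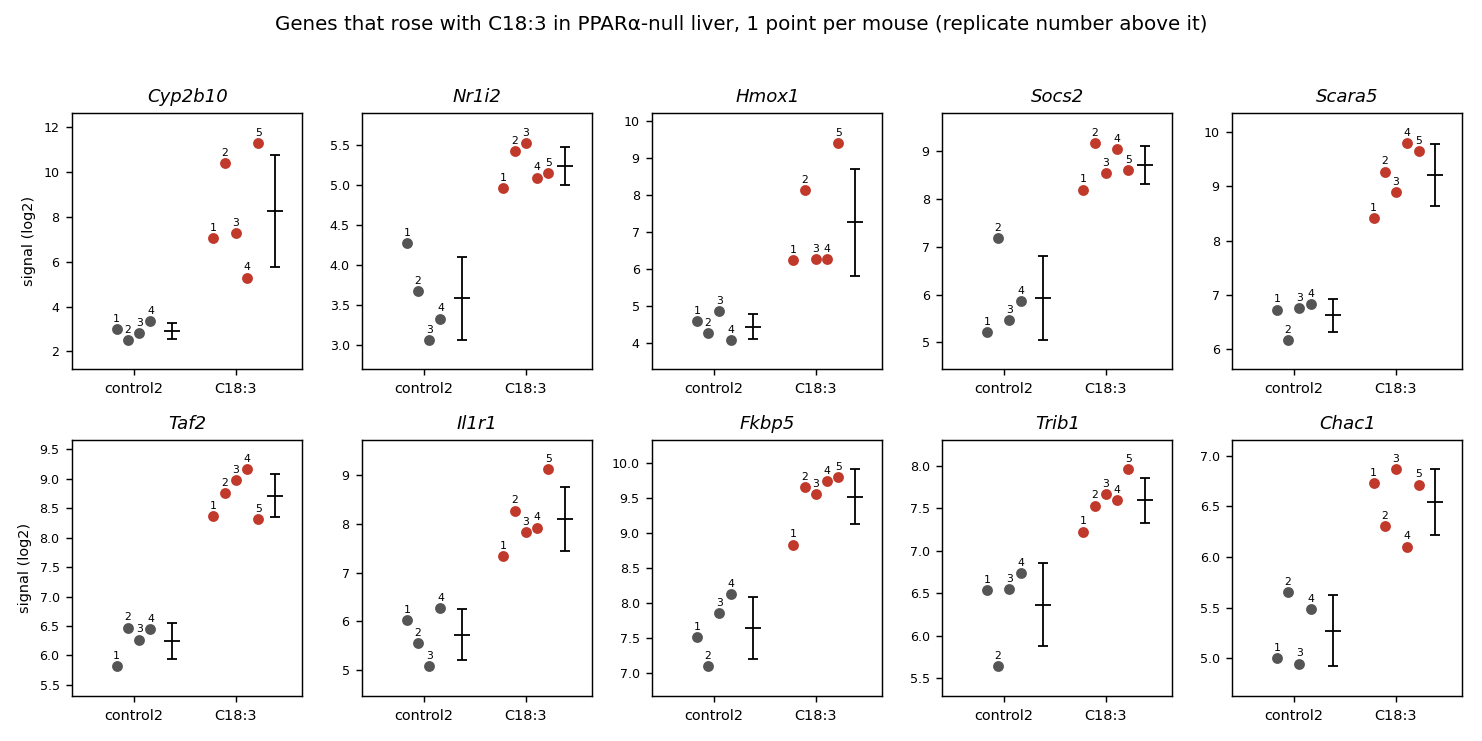
Log2 signal (vertical axis) of 10 genes that rose with C18:3 in PPARα-null liver, for control2 (grey, 4 mice) and C18:3 (red, 5 mice); each point is 1 mouse with its replicate number, and the bar beside it is the mean with the SD. In every panel the lowest C18:3 liver is above the highest control, and for Cyp2b10 and Hmox1 replicates 2 and 5 are the highest.

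Socs2, a suppressor of growth hormone signalling that growth hormone itself induces, read 8.20, 9.18, 8.54, 9.04 and 8.61 with C18:3 and 5.21, 7.18, 5.46 and 5.86 in control2. The groups do not overlap, and Socs2 rose by 2.78 (SE 0.81, adjusted p = 0.018), a call lost without control2 replicates 1 or 3 (adjusted p up to 0.0555). Fkbp5, a co-chaperone induced by glucocorticoids, read 8.84, 9.66, 9.57, 9.75 and 9.80 with C18:3 and 7.51, 7.10, 7.86 and 8.12 in control2, without overlap, and rose by 1.88 (SE 0.38, adjusted p = 0.000849). Its relative Fkbp4 changed by -0.58 (adjusted p = 0.0282), a call lost without C18:3 replicates 1, 2 or 5 or control2 replicates 1 or 3 (adjusted p up to 0.138). Irs1, the insulin receptor substrate, read 6.38, 6.25, 6.90, 7.21 and 6.93 with C18:3 and 7.76, 8.03, 8.00 and 7.65 in control2, without overlap, and fell by 1.13 (SE 0.28, adjusted p = 0.00534). Of 31 measured genes of insulin and FOXO signalling Socs2, Igfbp1, Trib1 and Igf1 rose and Irs1 fell, with a median of 0.44, beside 5.21% rising and 4.89% falling over all genes. Trib1, a pseudokinase, read 7.23, 7.53, 7.67, 7.60 and 7.96 and 6.54, 5.64, 6.55 and 6.74 in the same order and rose by 1.23 (SE 0.27, adjusted p = 0.00205). Igfbp1, which insulin represses, rose by 1.57 (adjusted p = 0.045), a call lost without C18:3 replicates 1, 2, 3 or 5 or control2 replicates 1, 2 or 3 (adjusted p up to 0.191). The calls of Fkbp5, Irs1 and Trib1 were kept in all 9 fits without 1 array.

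Clock genes changed in opposite directions within 17 measured members, beside 5.21% rising and 4.89% falling over all genes. Cry1 rose by 1.57 (adjusted p = 0.017), a call lost without C18:3 replicate 5 or control2 replicate 3 (adjusted p up to 0.113), and Nfil3 by 1.33 (adjusted p = 0.0181), a call lost without C18:3 replicate 5 or control2 replicate 3 (adjusted p up to 0.155). Dbp, a clock output factor, changed by -1.34 (adjusted p = 0.0239), a call lost without C18:3 replicates 2 or 5 or control2 replicate 2 (adjusted p up to 0.181). Nr1d1 also passed, but both groups were in the lowest 10% of signals.

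Hnf4a, the nuclear receptor that maintains hepatocyte expression, read 11.54, 11.57, 11.39, 11.36 and 11.62 with C18:3 and 11.03, 10.84, 10.43 and 10.81 in control2. The groups lie apart with little spread, all 4 of its probesets rose, and the change was 0.72 (SE 0.14, adjusted p = 0.000356). In WT livers Hnf4a changed by -0.06 (adjusted p = 0.932), and the difference of 0.78 passed (adjusted p = 0.0258) but lost its call in 8 of 28 alternatives, among them the fits without PPARα-null C18:3 replicates 2 or 5, PPARα-null control2 replicate 3, WT C18:3 replicate 5 or WT control2 replicate 1. Of 25 measured nuclear receptors and co-activators Hnf4a, Nr1i2 and Arnt rose and none fell, beside 5.21% rising over all genes. The Arnt call was lost in 5 of the 9 fits without 1 array (adjusted p up to 0.19).

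Enzymes of amino acid breakdown and the urea cycle mostly rose where they changed. Of 41 measured genes 6 rose (Aass, Asl, Cth, Mat1a, Slc25a15 and Ahcy) and Prodh2 fell, with a median of 0.07. Over all genes 5.21% rose and 4.89% fell. Cth, which makes cysteine from cystathionine, read 13.07, 12.97, 13.19, 12.92 and 13.17 with C18:3 and 12.31, 12.43, 12.39 and 12.21 in control2. Its groups lie apart, and it rose by 0.73 (SE 0.14, adjusted p = 0.000511). Aass of lysine breakdown rose by 0.93 (adjusted p = 0.0009), Asl of the urea cycle by 0.80 (adjusted p = 0.00143), and Mat1a, which makes S-adenosylmethionine, by 0.50 (adjusted p = 0.00155). The calls of Cth, Aass, Asl and Mat1a were kept in all 9 fits without 1 array. In WT livers none of the 41 rose and 1 fell, beside 2.16% rising and 1.19% falling over all genes. A direct test of the difference between the genotypes passed for 1 of the 41, beside 0.886% of all genes.

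Il1r1, the interleukin 1 receptor, read 7.35, 8.28, 7.84, 7.93 and 9.13 with C18:3 and 6.02, 5.55, 5.08 and 6.27 in control2, without overlap, and rose by 2.37 (SE 0.61, adjusted p = 0.00755). Saa4, a constitutive serum amyloid, rose by 0.96 (SE 0.22, adjusted p = 0.00319). Of 44 measured acute phase and complement genes 4 rose (Il1r1, Saa4, Lbp and Crp) and none fell, with a median of 0.12, beside 5.21% rising and a median of -0.02 over all genes. Lbp, which binds lipopolysaccharide, rose by 0.98 (adjusted p = 0.0272), a call lost without C18:3 replicates 2 or 5 or control2 replicates 2, 3 or 4 (adjusted p up to 0.123), and Crp by 0.53 (adjusted p = 0.0187), a call lost without C18:3 replicates 2 or 5 or control2 replicates 2 or 3 (adjusted p up to 0.112). Of 34 interferon-induced genes 4 rose (Ifit2, Oasl2, Irf9 and Dhx58) and none fell, with a median of 0.40, beside the same 5.21% rising over all genes. Ifit2 read 4.35, 7.33, 4.28, 3.62 and 6.79 with C18:3 and 3.29, 4.03, 4.02 and 3.42 in control2, so that replicates 2 and 5 are high and the other 3 C18:3 livers lie near or within the controls. None of the 34 passed without C18:3 replicate 2 or without C18:3 replicate 5, with medians of 0.16 and 0.23, while 12 rose without C18:3 replicate 4.

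Scara5, a scavenger receptor that takes up ferritin, read 8.41, 9.27, 8.89, 9.81 and 9.65 with C18:3 and 6.72, 6.17, 6.76 and 6.82 in control2, without overlap, and rose by 2.59 (adjusted p = 0.017), a call lost without C18:3 replicate 5 or control2 replicate 2 (adjusted p up to 0.0603). Taf2, a subunit of the general transcription factor TFIID, read 8.37, 8.76, 8.97, 9.16 and 8.32 with C18:3 and 5.81, 6.47, 6.27 and 6.45 in control2. Its groups lie far apart, and it rose by 2.47 (SE 0.43, adjusted p = 0.000189). Thbd, the endothelial thrombin receptor thrombomodulin, was in the lowest 10% of signals in control2 and at least 2.03-fold higher with C18:3 (adjusted p = 0.00325). Inhbb, an activin subunit, was at least 1.10-fold higher from the same floor (adjusted p = 0.00922), a call lost without C18:3 replicate 5 (adjusted p of 0.0643). Rcan1, an inhibitor of calcineurin, rose by 1.70 (adjusted p = 0.00222) and Ablim3, an actin-binding protein, by 1.88 (adjusted p = 0.0009), both in all 9 fits without 1 array. Rnase2a, an eosinophil-type ribonuclease, rose by 2.19 (adjusted p = 0.016), a call lost without control2 replicate 4 (adjusted p of 0.0743), and Plk3, a stress-responsive kinase, by 2.03 (adjusted p = 0.0399), a call lost without C18:3 replicates 3, 4 or 5 or control2 replicates 1 or 3 (adjusted p up to 0.153).

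Among the falls Ddah1, which clears asymmetric dimethylarginine, read 6.40, 6.97, 8.18, 6.34 and 7.39 with C18:3 and 9.27, 8.54, 8.83 and 9.14 in control2, without overlap. All 3 of its probesets fell, and the change was -1.89 (SE 0.41, adjusted p = 0.00155). Aqp8, a water channel of hepatocytes, read 6.44, 6.29, 6.32, 5.89 and 6.19 and 8.07, 8.29, 8.73 and 7.01 in the same order and changed by -1.80 (adjusted p = 0.016), a call lost without control2 replicate 3 (adjusted p of 0.069). Egln3, an oxygen-sensing prolyl hydroxylase, fell by 1.40 (adjusted p = 0.000859) and Myorg by 1.34 (adjusted p = 0.00255). Dclk3, a kinase, fell to the lowest 10% of signals with C18:3, at least 2.01-fold below control2 (adjusted p = 0.00412). Dixdc1 was at least 1.38-fold lower (adjusted p = 0.0261), a call lost without C18:3 replicates 2, 3 or 5 or control2 replicates 1, 2 or 4 (adjusted p up to 0.0663). Wfdc2, Aqp4 and Ccn1 passed as falls and were in the lowest 10% with C18:3, but some of their controls were too, and the bound gives no fold. The limit of the lowest 10% was 4.94, 4.88, 5.00 and 4.80 on the 4 control2 arrays. Aqp4 read 5.06, 4.66, 4.04 and 4.30 on them and Ccn1 3.98, 5.00, 3.83 and 4.83, while Wfdc2 ran from 4.3 to 5.8. Their mean signals with C18:3 and in control2 were 3.28 and 4.85 for Wfdc2, 3.13 and 4.51 for Aqp4, and 3.02 and 4.41 for Ccn1. The call of Aqp4 was lost without C18:3 replicates 2, 3 or 5 or control2 replicates 1 or 2 (adjusted p up to 0.0988), and that of Ccn1 without control2 replicates 2 or 4 (adjusted p up to 0.0687). Other Ccn1 probesets did not pass (adjusted p = 0.184 and 0.175).

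Of the 115 genes named by rule 93 were called in this comparison, and 36 of the 93 kept the call in all 9 fits without 1 array. In a fit of these 9 arrays alone, which has its own and less certain estimate of the spread, 299 probesets and 39 of the 93 genes were called. Acaca, Creb3l3, Eci2, Elovl5, Hmox1, Lpin2, Rcan1 and Saa4 were kept in the fits without 1 array and not in that fit.

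C18:3 was set directly against the other fats of the run in PPARα-null livers, 2 contrasts in all, each adjusted over 11412 probesets. Trilinolenin and trilinolein (C18:2) differ by 1 double bond per acyl chain and were given in the same volume for the same time. In limma's test none of the 11412 probesets differed between them at an adjusted p under 0.05 (0%), the smallest adjusted p was 0.998, and 423 were at an unadjusted p under 0.05. The median 95% interval, unadjusted and for single genes, reached 0.28 on either side over all genes and 0.31 over the 673 genes called for C18:3. After adjustment over 11412 probesets larger differences could also fail to pass, as that of Hmox1 below did. The absence of calls therefore does not show that the 2 fats act alike. Srebf1 read 5.36, 6.29, 5.93, 5.02 and 6.59 with C18:2, with 1 liver above the C18:3 range and 4 within it, and the difference was -0.21 with a 95% interval from -0.97 to 0.55. Hmox1 read 7.38, 4.94, 4.65, 8.72 and 4.25 with C18:2, where 2 of 5 livers are high, and the difference was 1.27 with an interval from 0.17 to 2.38 and an adjusted p of 0.998. The 3 fats of the run share the control2 livers. Against control2, C18:2 changed 10 genes (0.15%) and C10:0 464 (6.97%).

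Against C10:0, C18:3 differed at 113 probesets (0.99%), 84 higher (0.736%) and 29 lower (0.254%), and 73 genes (1.1%). That count depends on single livers and on scaling, from 2 to 345 over the fits without 1 array (2 without C18:3 replicate 5 or C10:0 replicate 3, 6 without C18:3 replicate 2, 21 without C10:0 replicate 5, 50 without C18:3 replicate 4 or C10:0 replicate 1, and 345 without C18:3 replicate 1), and with median centring of the arrays it was 31 higher and 34 lower. Hmox1 read 5.12, 4.42, 4.04, 6.22 and 5.32 with C10:0, all below the lowest C18:3 liver, and was higher with C18:3 by 2.24 (SE 0.55, adjusted p = 0.034). Cth read 12.60, 12.58, 11.93, 12.84 and 12.45 with C10:0, all below the C18:3 livers, and was higher with C18:3 by 0.58 (adjusted p = 0.0249). Tkfc read 6.81, 6.56, 7.63, 6.86 and 7.13 with C10:0, all above the C18:3 livers, and was lower with C18:3 by 1.29 (SE 0.34, adjusted p = 0.042). Cyp2c39, a cytochrome of arachidonic acid epoxidation, read 4.79, 6.79, 5.32, 5.37 and 7.74 with C18:3 and 8.16, 8.23, 7.97, 7.13 and 8.20 with C10:0 and was lower with C18:3 by 1.93 (adjusted p = 0.0258). The Hmox1 call was lost without C18:3 replicates 2 or 5 or C10:0 replicates 1, 2, 3 or 5 (adjusted p up to 0.2). The Tkfc call was lost without C18:3 replicates 2, 4 or 5 or C10:0 replicates 1, 3 or 5 (adjusted p up to 0.157). The Cth call was lost without C18:3 replicates 2 or 5 or C10:0 replicates 3 or 5 (adjusted p up to 0.136), and the Cyp2c39 call without C18:3 replicate 4 or C10:0 replicates 3 or 5 (adjusted p up to 0.0668). Fasn read 8.51, 8.58, 8.47, 8.39 and 8.33 with C10:0, all above the C18:3 livers, but the difference of -1.17 did not pass (95% interval -1.86 to -0.47, adjusted p = 0.0747), nor did that of Srebf1, -0.81 (adjusted p = 0.289).

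**Figure D5:**
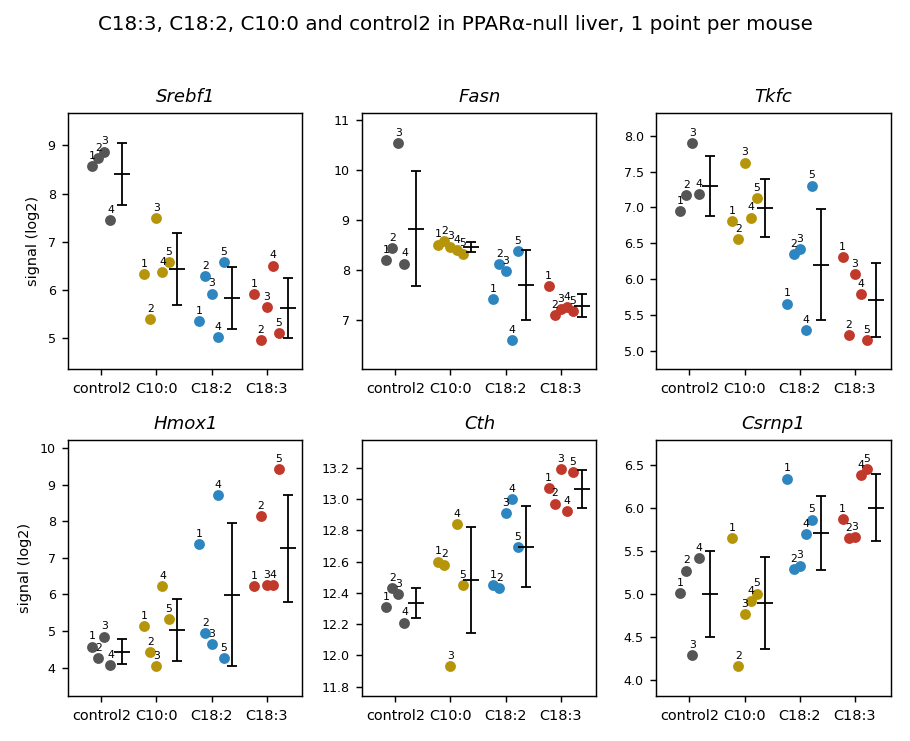
Log2 signal (vertical axis) of 6 genes in PPARα-null liver with control2 (grey, 4 mice), C10:0 (ochre), C18:2 (blue) and C18:3 (red, 5 mice each); each point is 1 mouse with its replicate number, and the bar beside it is the mean with the SD. For Srebf1 all livers given fat but 1 (C10:0 replicate 3) lie below the controls, for Tkfc and Fasn the C10:0 livers lie above the C18:3 livers, and for Cth they lie below them.

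The genes called for C18:3 without PPARα were also counted in comparisons with other controls. In WT livers 41 of the 673 genes were also called, and the 38 that moved in the same direction are 5.65% of the genes called in PPARα-null and 17% of those called in WT livers. Over all 6661 genes 3.35% were called in WT and 10.1% in PPARα-null livers, in either direction. Aldh9a1, Chac1 and Elmod3 were called in opposite directions. In PPARα-null livers of the first run, C22:6 (docosahexaenoic acid) changed 1048 genes (15.7%), of which 241 were shared with C18:3 in the same direction, 35.8% of the C18:3 and 23% of the C22:6 genes, with Ahcy alone opposite. The labels give the PPARα-null controls of that run as 12 to 20 weeks old and the mice given C22:6 or C18:1 as 8 to 24 weeks, so that fat and age range cannot be told apart there. C18:1 (oleic acid) of that run changed 95 genes (1.43%), and 37 were shared, all in the same direction, 5.5% of the C18:3 and 38.9% of the C18:1 genes. Over the 6661 genes the changes with C18:3 without PPARα correlated at r = 0.29 (rho = 0.24) with those of C18:3 in WT, r = 0.55 (rho = 0.51) with C22:6 and r = 0.58 (rho = 0.47) with C18:1 in PPARα-null livers, a description across genes, which are not independent replicates and share the array's probes.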

How the data were processed

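Liver RNA was hybridised to 1 Affymetrix mouse whole-genome array per mouse. The deposited values are probeset intensities that the authors computed with GC-RMA (GCRMA 2.20 in the submitters' processing notes) after the normalization their methods call quartile, for probesets that passed their filter on low variation. The intensities are linear, so log2 was taken. Such processing shrinks low signals, and the lowest 10% of an array's signals was treated as below reliable measurement: a change against such a group is given as at least the fold over that limit.

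All 93 arrays, in 20 groups, were fitted with 1 mean per group in limma 3.58.1 (R 4.3.3, with the packages data.table (1.17.8) and jsonlite (2.0.0)) without an intensity trend, two-sided, and p values were adjusted by Benjamini-Hochberg over 11412 probesets. The fit draws its spread from all 20 groups (73 residual degrees of freedom). Of these probesets 10279 carry a single gene symbol, 406 several and 727 none in the platform annotation, and only the first kind stands for genes, with 10262 symbols updated by Entrez ID. A gene is represented by its probeset with the highest mean signal. Other probesets of Lpin2, Socs2, Gpd2, Acsl4, Dbp, Lbp, Bdh1 and Rrs1 moved the same way, but not all of them passed. Labels do not say that mice with the same number share anything, and the fit is unpaired. No pair of arrays held identical values. The number of arrays limits the precision.

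The members and the 39 gene lists (944 genes, 717 measured) were chosen with earlier results of these data known. Named by rule are the 15 largest rises and falls that passed without overlap, up to 4 called members of each list, the 5 largest differences each way between genotypes and from C10:0, and a few fixed genes (list members given beyond these were picked with their values in view). Alternatives were filters, scaling, array weights, an intensity trend, separate fits, a replicate block and leaving out arrays. The fit was tested on simulated data. Promoters came from RefSeq (GRCm38.p6). Figures were drawn in Python 3.11.15 with matplotlib 3.10.9.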

Additional observations from a re-analysis of the deposited data

Results flagged for a closer look

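In some named genes a single liver lay far from the rest of its group by Dixon's criterion, which chance meets in about 1 of 20 groups, and 16 of 230 groups of values did so. Control2 replicate 3 stood out most often, with log2 signals of 10.54 for Fasn against at most 8.44 in the other controls, 10.80 for Gpam against at most 10.01, 11.67 for Slc2a2 against at most 11.24, and 10.28 for Cyp3a13 against at least 11.07. Control2 replicate 4 stood out for Ctla2a (5.99) and Thbd (4.34), control2 replicate 1 for Rcan1 (5.03) and control2 replicate 2 for Scara5 (6.17). C18:3 replicate 5 stood out for Ahr, the dioxin receptor (9.93), Fabp4, an adipocyte fatty acid binding protein (7.79), and G0s2 (7.42). C18:3 replicate 1 stood out for Fasn (7.68), Fkbp5 (8.84) and Hacl1 (9.93), and C18:3 replicate 4 for Angptl4 (8.62) and Egln3 (5.32).

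For some named genes, G0s2 and Gpam of the outlying livers above among them, the effect of C18:3 differed between the genotypes by the test of the difference in limma (log2, PPARα-null minus WT). It was lower without PPARα for Acot3 (-4.52), G0s2 (-3.02), Acot4 (-2.33), Ehhadh (-1.27), Gpam (-0.96) and Nfe2l2 (-0.69). It was higher without PPARα for Chac1 (2.72), Csrnp1 (2.01), Ier2 (1.80), Megf9 (1.70) and Hnf4a (0.78). The Gpam difference was not called in 7 of 29 alternatives (-0.74, adjusted p = 0.129, without PPARα-null control2 replicate 3, and also without PPARα-null C18:3 replicates 2 or 3, WT C18:3 replicate 3 or WT control2 replicate 1). The Nfe2l2 difference was not called in 13 of 28 alternatives (adjusted p up to 0.142), 11 of them fits without 1 array (PPARα-null C18:3 replicates 1 or 2, PPARα-null control2 replicates 1, 2 or 3, WT C18:3 replicates 2, 3, 4 or 5, or WT control2 replicates 1 or 4). The fitted differences of Paqr7 (-2.60), Chrna2 (-2.04) and Cyp26a1 (2.62) are not measured sizes, since both PPARα-null groups were in the lowest 10% of signals for all 3, as were the WT controls for Chrna2 and the WT C18:3 livers for Cyp26a1. Without WT control2 replicate 1, the Paqr7 and Cyp26a1 differences were not called.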

How the results depend on the processing

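No called change of a named gene reversed its sign under any alternative run, and C18:3 minus C18:2 stayed at 0 probesets in all of them. The balance of higher and lower calls did turn: C18:3 minus control2 went from 649 higher and 483 lower to 469 and 502 without control2 replicate 4. For C18:3 minus control2 in PPARα-null livers, 1132 probesets at an adjusted p under 0.05 became 754 with an inter-quartile range of at least 0.5, 299 in a fit of the 9 arrays alone, 647 with a fold of at least 1.5, and 376 to 1358 without 1 array. At the study's unadjusted threshold, 1524 became 868, 927, 779 and 945 to 1645 in the same order. Without both C18:3 replicate 5 and control2 replicate 4, an alternative chosen after seeing the data, the counts were 400 and 945. The difference between genotypes, 98 probesets, became 12 in a fit of the groups compared alone, 37 with the later run alone, 169 with array weights, and 38 to 143 without 1 array. C18:3 minus C10:0, 113 probesets, became 46 with the stricter inter-quartile range, 3 in a fit of the groups compared alone, 49 with the later run alone, 65 with median centring (31 higher and 34 lower, against 84 and 29), 28 with quantile normalization (13 higher and 15 lower), 385 with array weights, 51 with a fold of at least 1.5, and 2 to 345 without 1 array. The fits without other arrays have fewer residual degrees of freedom by construction, and the cause of the other shifts was not tested.

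With the replicate number as a block the counts were 1042 and 1475 for C18:3 minus control2, 96 for the difference between genotypes, 0 for C18:3 minus C18:2 and 176 for C18:3 minus C10:0. Same-numbered C18:3 and control2 arrays did not deviate together (correlations -0.364, -0.103, -0.122 and -0.229, and 0 of 4 matched its own number best), so the block pairs nothing known. Of the 93 called genes, 93 kept their call with median centring and with an intensity trend, 85 with array weights, 83 with quantile normalization, 81 with the block, 78 in the later run alone, 74 with a fold of at least 1.5, 50 without both doubted arrays and 39 in the fit of 9 arrays. Signals in the lowest 10% of an array give bounds only.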

Other observations

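The list counts in this section stand beside 5.21% rising and 4.89% falling over all genes. Of 34 measured genes of the endoplasmic reticulum stress and amino acid response 4 rose (Aars, Chac1, Creb3l3 and Cth) and 2 fell (Canx and Pdia6), with a median of -0.09. The risers include the tRNA synthetase Aars (0.43, limma adjusted p = 0.0281), and the members that fell fold proteins in the endoplasmic reticulum (Pdia6 -0.58, adjusted p = 0.0464, a call lost without C18:3 replicates 1, 2 or 5 or control2 replicates 1, 3 or 4 (adjusted p up to 0.18)). Of 33 genes of ribosome biogenesis and translation factors Eif1a and Rrs1 rose and none fell, 30 lay above 0 and the median was 0.19. Eif1a, a translation initiation factor, rose by 1.08 (adjusted p = 0.00231) in all 9 fits without 1 array, while the call of Rrs1 (0.52) was lost without C18:3 replicates 2, 4 or 5 or control2 replicates 1, 2, 3 or 4 (adjusted p up to 0.122). Of 45 genes of the respiratory chain and the mitochondrial ribosome 37 lay below 0, with a median of -0.07, and Mrpl12 fell (adjusted p = 0.0283), a call lost without C18:3 replicate 5 or control2 replicates 2 or 4 (adjusted p up to 0.164). Of 32 immediate early and growth arrest genes 27 lay above 0, with a median of 0.59 beside -0.02 over all genes, and Plk3 and Klf6 passed. That count was 0 without control2 replicate 1 or 3 or C18:3 replicate 5 and 9 without control2 replicate 4. Other Klf6 probesets did not pass (adjusted p from 0.0816 to 0.31).

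Of 19 apolipoproteins and lipoprotein assembly genes Apobec1 and Angptl4 rose and Apoc2 fell, of 22 genes of bile acid synthesis and transport Cyp27a1 rose and Hsd3b7 fell, and of 14 LXR targets Srebf1 fell. The Apobec1 call was lost in 6 of the 9 fits without 1 array (adjusted p up to 0.128). Apoc2, an activator of lipoprotein lipase, changed by -0.40 (adjusted p = 0.00956), a call lost without C18:3 replicate 5 (adjusted p of 0.0623). Cyp27a1, a sterol hydroxylase, rose by 0.40 (adjusted p = 0.0222), a call lost without C18:3 replicates 2 or 5 or control2 replicates 2 or 4 (adjusted p up to 0.148). Hsd3b7, of the same pathway, changed by -0.46 (adjusted p = 0.0169), a call lost without control2 replicates 1 or 3 (adjusted p up to 0.111). Of 25 genes of fatty acid uptake, binding and activation Acot1, Acot12 and Acsl4 rose and Acsl5 fell, and Cd36, the fatty acid translocase, changed by -0.29 (adjusted p = 0.558). The calls of Acot12, Acsl4 and Acsl5 were each lost in 6 of the 9 fits without 1 array (adjusted p up to 0.148, 0.209 and 0.234). Of 16 lipid droplet and lipolysis genes Plin2 rose, of 9 genes of microsomal omega-oxidation Adh4 fell, and Cyp4a14 was in the lowest 10% of signals in both groups. Of 22 heat shock and chaperone genes Fkbp5 rose and Fkbp4 fell, and of 21 actin cytoskeleton genes Tubb2a rose and Arpc2 fell. The calls of Tubb2a and Arpc2 were lost in 6 and 4 of the 9 fits without 1 array (adjusted p up to 0.23 and 0.0859). None of 10 cell cycle genes passed.

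Of 8 sinusoidal endothelial markers Stab2 rose by 0.43 (adjusted p = 0.0293), a call lost without C18:3 replicates 2 or 5 or control2 replicates 1 or 2 (adjusted p up to 0.0806), and the summed level of that list was 1910 to 2250 with C18:3 and 1630 to 2030 in control2. None of the 13 macrophage markers passed, and the single measured bile duct, red blood cell and adipose or pancreas markers did not either.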
